A study of Rattus norvegicus with 7 samples.

Results

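Thyroid hormone transport and action was followed through 8 genes in hippocampus and hypothalamus of male Sprague Dawley rats. The genes were Slco1c1 and Crym, which move or hold the hormone in brain, Dio2 and Dio3, which activate and inactivate it, Thra and Thrb, which encode its nuclear receptors, and Klf9 and Hr, which are known targets. The selection rule takes the genes by symbol alone, and a measured value enters only in the choice of locus within a symbol. The set was, however, proposed with earlier results of these data known. All 8 were found in both deposited tables, among the 15805 symbols that the tables share. Each table also listed a second locus for 1 of the 8 genes, and the locus with the highest mean was taken for each symbol.

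The rats were 2 months old at the start and received an omega-3 diet with docosahexaenoic acid (DHA) for 6 weeks. Poly-A selected RNA of dissected tissue was sequenced in 4 libraries of DHA hippocampus and 3 libraries of DHA hypothalamus. The labels name no mutation or transgene, and chow-fed rats were not analysed here, so every library carries the diet and no effect of it was estimated. The labels do not say whether libraries with the same replicate number came from the same rat.

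Thyroid hormone reaches the brain mostly as the prohormone thyroxine, which crosses the blood-brain barrier through carriers of endothelial cells and astrocytes. Within the brain, the deiodinase of Dio2, made mainly by astrocytes and by the tanycytes that line the floor of the third ventricle, converts thyroxine to the active triiodothyronine. The deiodinase of Dio3, made by neurons, inactivates both forms. Triiodothyronine binds nuclear receptors that sit on DNA with retinoid X receptors and exchange corepressors for coactivators. In hypothalamus the hormone also feeds back on the neurons that make thyrotropin-releasing hormone.

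Values were FPKM, a fragment count scaled to transcript length and to library size, as deposited by the authors. Summed FPKM ran from 370020 to 391349 per hippocampus library and from 443335 to 471484 per hypothalamus library, and sequencing depth is unknown. The 2 tissues come from separate tables whose scaling to each other is not stated. Tissue and table cannot be told apart, so comparisons across them carry no test. To set levels side by side, the shared symbols of each library were scaled to total 1000000, and differences are means of log2(rescaled value + 1) in hippocampus minus hypothalamus. This scale understates the difference of low genes. A gene is called higher in a tissue here when its lowest library there exceeded the highest library of the other tissue and the means were 2-fold apart or more. In whole tissue, fewer cells of a type and less RNA per cell cannot be told apart. The tissue labels were checked against 4 genes of hippocampal neurons (Neurod6, Slc17a7, Wfs1, Itpka) and 6 of hypothalamic neurons (Oxt, Avp, Pmch, Hcrt, Pomc, Cartpt), and all 10 were called higher in the labelled tissue.

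Promoter sequences from the RefSeq table of GRCr8 are shown for the 3 called members that it holds. Of the 8 members, 5 had an entry (Klf9, Dio2, Dio3, Thra and Thrb). The build in the submitters' notes is rn5, so these coordinates belong to the reference and not to the deposited loci. The 250 bases before the annotated start are printed 5′ to 3′, and capitals mark matches on either strand to any of 5 motifs. Searched were a TATA box (TATAAA), a box bound by Sp and Krüppel-like factors (GGGCGG), a box bound by nuclear factor Y (CCAAT), the core of a thyroid hormone response element (AGGTCA) and the cyclic AMP response element (TGACGTCA). For Thra, the first of 2 annotated starts is given.
Klf9, chr1:230126396-230126645, strand +: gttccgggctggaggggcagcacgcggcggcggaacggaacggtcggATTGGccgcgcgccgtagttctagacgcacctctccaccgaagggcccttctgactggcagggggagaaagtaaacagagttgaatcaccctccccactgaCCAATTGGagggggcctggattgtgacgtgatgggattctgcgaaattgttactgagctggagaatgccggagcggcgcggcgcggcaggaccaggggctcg
Dio2, chr6:115410595-115410844, strand -: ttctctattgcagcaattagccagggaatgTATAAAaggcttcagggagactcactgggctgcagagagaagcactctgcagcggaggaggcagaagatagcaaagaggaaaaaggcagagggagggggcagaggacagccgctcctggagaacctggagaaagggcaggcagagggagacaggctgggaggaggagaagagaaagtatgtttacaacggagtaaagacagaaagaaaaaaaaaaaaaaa
Thra, chr10:84197891-84198140, strand +: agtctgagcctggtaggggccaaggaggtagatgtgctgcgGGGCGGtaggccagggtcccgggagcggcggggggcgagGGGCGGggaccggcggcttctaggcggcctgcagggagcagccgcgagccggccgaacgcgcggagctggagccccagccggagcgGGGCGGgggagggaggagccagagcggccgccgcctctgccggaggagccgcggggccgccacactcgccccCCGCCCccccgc
The Dio2 sequence held TATAAA, 220 bases before the start. Those of Klf9 and Thra did not hold it. Thra held 4 matches to GGGCGG and Klf9 held 3 matches to CCAAT, of which 2 overlap on opposite strands. The window of the second Thra start, with 44.8% guanine and cytosine, held none of the 5 motifs. Among 33469 reference windows of the same length, 12.9% held TATAAA, 30.5% GGGCGG and 34.0% CCAAT. The hormone response core AGGTCA was present in 14.1% and TGACGTCA in 1.59% of all windows, and neither was found in the windows of the 5 members. The guanine and cytosine content was 63.6% in Klf9, 49.6% in Dio2 and 79.6% in Thra, against a median of 51.2%. A match is a description of these letters and was not tied to the expression values.

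Of the 8 members, 4 were called higher in hippocampus (Crym, Klf9, Dio2 and Thra) and none was called higher in hypothalamus. Of all 10736 symbols that averaged 1 FPKM or more in either tissue, 14.5% were called higher in hippocampus and 13.4% higher in hypothalamus. The filter was passed by 7 of the 8 members, all except Dio3. Without the 2-fold requirement, Thrb joined the genes whose libraries did not overlap. By that rule 28.2% of all symbols were higher in hippocampus and 24.4% higher in hypothalamus. Slco1c1, Dio3 and Hr overlapped between the tissues.

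**Figure D1:**
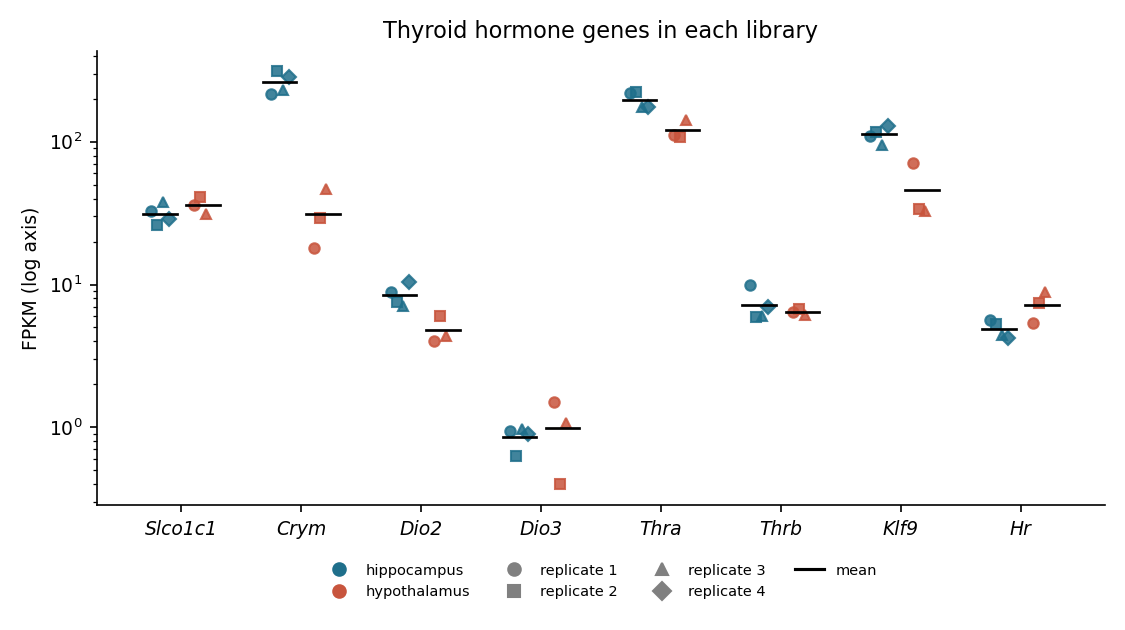
FPKM of each of the 8 genes (log axis) in 4 hippocampus libraries (blue) and 3 hypothalamus libraries (red), 1 symbol shape per replicate number, with the mean as a bar. Crym is apart by the widest gap, from 215 to 311 FPKM against 18.1 to 46.6 FPKM, while Slco1c1, Dio3 and Hr share ranges.

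Among the genes of transport and binding, Slco1c1 encodes an organic anion transporter that carries thyroxine across the brain endothelium. It read 32.5, 26.2, 37.7 and 28.6 FPKM in hippocampus replicates 1 to 4 and 36.3, 40.9 and 31.3 FPKM in hypothalamus replicates 1 to 3. The ranges overlapped, and the means were 31.3 ± 5.003 FPKM (SD, n = 4) and 36.2 ± 4.80 FPKM (SD, n = 3). The rescaled difference was 0.08 ± 0.18 (SE), so it was smaller than the spread between replicates. Its sign depended on the scaling, at −0.21 in FPKM as deposited and −0.05 by upper-quartile scaling.

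Crym encodes mu-crystallin, a cytosolic protein that binds triiodothyronine. It read 215, 311, 231 and 284 FPKM in the hippocampus libraries and 18.1, 29.0 and 46.6 FPKM in the hypothalamus libraries. Every hippocampus library was more than 4 times the highest hypothalamus library, and the hypothalamus libraries were spread more widely among themselves. The means were 260.3 ± 44.9 FPKM (SD, n = 4) and 31.2 ± 14.4 FPKM (SD, n = 3), with coefficients of variation of 17.2% and 46.0%. The rescaled difference was 3.43 ± 0.38 (SE), or 10.8-fold, and 88 of the 10736 symbols compared (0.820%) differed more towards hippocampus. In hippocampus Crym had the highest mean of the 8 members, with a range that overlapped that of Thra. In hypothalamus it came after Thra, Klf9 and Slco1c1 and overlapped Klf9 and Slco1c1.

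Of the deiodinase genes, Dio2 read 8.84, 7.495, 7.07 and 10.4 FPKM in hippocampus and 3.99, 6.06 and 4.34 FPKM in hypothalamus. The ranges did not overlap, but hypothalamus replicate 2 came within about 1 FPKM of the lowest hippocampus library. The means were 8.45 ± 1.496 FPKM (SD, n = 4) and 4.80 ± 1.11 FPKM (SD, n = 3). The rescaled difference was 1.05 ± 0.22 (SE), just past the 2-fold line. It was 0.95 without hippocampus replicate 4, 0.96 without hypothalamus replicate 1 and 0.97 without hypothalamus replicate 3, and the call was lost in each case.

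Dio3 was the lowest member in both tissues, at 0.943, 0.627, 0.977 and 0.892 FPKM in hippocampus and 1.496, 0.399 and 1.08 FPKM in hypothalamus. Both the highest and the lowest library of this gene were hypothalamic. With means of 0.859 ± 0.159 FPKM (SD, n = 4) and 0.990 ± 0.554 FPKM (SD, n = 3) it did not reach the filter, and its rescaled difference of 0.14 ± 0.38 (SE) was within the spread.

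Thra encodes the alpha receptor and also a splice form that does not bind the hormone, and a value per gene does not separate the forms. It read 219.5, 221, 175 and 174 FPKM in hippocampus and 111, 108 and 143 FPKM in hypothalamus. Hippocampus replicates 1 and 2 were higher than replicates 3 and 4, and all 4 lay above hypothalamus replicate 3, the highest of its tissue. The means were 197 ± 26.5 FPKM (SD, n = 4) and 121 ± 19.0 FPKM (SD, n = 3), and the rescaled difference was 1.01 ± 0.14 (SE). The call was lost without hippocampus replicate 1 (0.95) or 2 (0.96), and without hypothalamus replicate 1 (0.97) or 2 (0.95). In the reference table Thra overlaps Nr1d1 and Med24, and whether fragments were assigned by strand is not stated, so its level is uncertain by what those genes contribute. Nr1d1, a clock repressor transcribed from the opposite strand, averaged 25.2 ± 7.28 FPKM (SD, n = 4) in hippocampus and 54.6 ± 18.7 FPKM (SD, n = 3) in hypothalamus, a rescaled difference of −0.78 with overlapping libraries. Med24, which encodes a mediator subunit, read 29.2 ± 1.96 FPKM (SD, n = 4) and 36.3 ± 6.10 FPKM (SD, n = 3), also with overlap after rescaling.

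Thrb encodes the beta receptor, which serves feedback on the thyroid axis. Its main locus read 9.88, 5.88, 6.04 and 6.92 FPKM in hippocampus and 6.41, 6.70 and 6.11 FPKM in hypothalamus. Hippocampus replicate 1 was the high library, and in FPKM as deposited the ranges overlapped. After rescaling they did not. The means were 7.18 ± 1.86 FPKM (SD, n = 4) and 6.41 ± 0.298 FPKM (SD, n = 3), and the rescaled difference was 0.41 ± 0.18 (SE), below 2-fold.

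A second hippocampal locus of Thrb read 0.00232, 5.65, 5.18 and 8.07 FPKM. It was near 0 in replicate 1, the library in which the main locus was highest. Added up, the 2 loci read 9.88, 11.5, 11.2 and 14.99 FPKM. With loci summed, the difference became 1.09 ± 0.13 (SE), and Thrb was then called higher in hippocampus. Hypothalamus listed 1 locus of Thrb.

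Among the targets, Klf9 encodes a Krüppel-like transcription factor that the hormone induces in neurons and oligodendrocyte precursors. It read 109.9, 118, 94.8 and 129.9 FPKM in hippocampus and, at its main locus, 71.3, 33.8 and 32.7 FPKM in hypothalamus. All hippocampus libraries were higher, and hypothalamus replicate 1 was more than 2 times the other hypothalamus libraries. The means were 113 ± 14.7 FPKM (SD, n = 4) and 45.9 ± 22.0 FPKM (SD, n = 3), a rescaled difference of 1.68 ± 0.39 (SE).

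A second hypothalamic locus of Klf9 was listed at 0, 36.2 and 29.7 FPKM in replicates 1 to 3. It was again replicate 1 that was listed at 0, and in it the main locus was high. Added up, the loci read 71.3, 70.0 and 62.4 FPKM, and their SD was 4.83 in place of 22.0 FPKM. The summed loci gave a difference of 0.99 ± 0.12 (SE), or 1.98-fold, with no overlap between the tissues, so that the call was lost. Without hypothalamus replicate 1 the main locus gave 2.06. Whether replicate 1 was quantified in another way than the other libraries of its tissue was not tested, so the values of the main loci of Klf9 and Thrb are uncertain by the second locus.

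**Figure D2:**
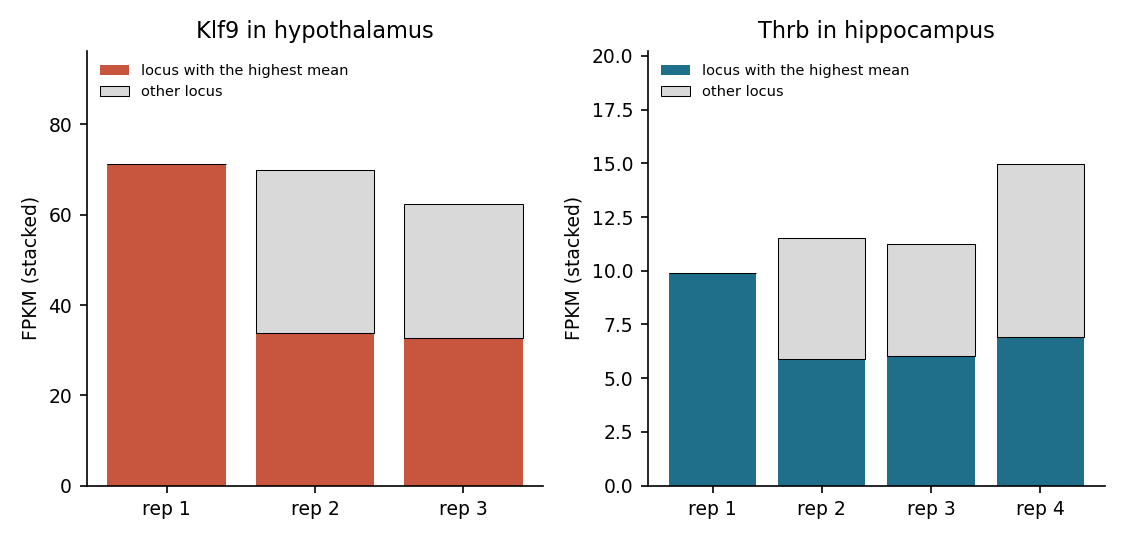
Stacked FPKM of the 2 loci listed for Klf9 in hypothalamus (left) and for Thrb in hippocampus (right), 1 bar per replicate, coloured for the locus with the highest mean and grey for the other. In replicate 1 of each tissue the grey part is at or near 0, and the bar totals are 71.3, 70.0 and 62.4 FPKM for Klf9 and 9.88, 11.5, 11.2 and 14.99 FPKM for Thrb.

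Hr encodes a corepressor that binds thyroid hormone receptors and is itself induced by the hormone. It read 5.65, 5.27, 4.46 and 4.21 FPKM in hippocampus and 5.34, 7.40 and 8.80 FPKM in hypothalamus. Hypothalamus replicate 1 lay inside the hippocampal range, and replicates 2 and 3 above it. The means were 4.90 ± 0.678 FPKM (SD, n = 4) and 7.18 ± 1.74 FPKM (SD, n = 3), and the rescaled difference was −0.22 ± 0.20 (SE). It was −0.39 without hypothalamus replicate 1, and the libraries then did not overlap.

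The scaling decided how many of these genes passed 2-fold. In FPKM as deposited, by median-of-ratios scaling and by upper-quartile scaling, Crym and Klf9 were called and Dio2 and Thra were not. The background shares higher in hippocampus were then 8.64%, 12.1% and 10.8% of symbols, and in FPKM as deposited 16.9% were higher in hypothalamus. Over all compared symbols the middle difference was 0.05 after rescaling to the same sum and −0.21, 0.01 and −0.07 under the other scalings. Relative to these medians Dio2 lay at 1.003, 0.92, 0.91 and 0.92 and Thra at 0.96, 0.92, 0.95 and 0.94. In 16 alternatives of pseudocount, scaling, loci, filter and left-out libraries, the libraries of Crym, Klf9, Dio2 and Thra did not overlap and hippocampus was higher. The call of Crym was kept in 16, that of Klf9 in 15, that of Dio2 in 8 and that of Thra in 6 of them. The 15 in which Klf9 kept its call all used its main locus alone. With loci summed its call was lost, at 0.99, so the 15 do not bear on the second locus.

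**Figure D3:**
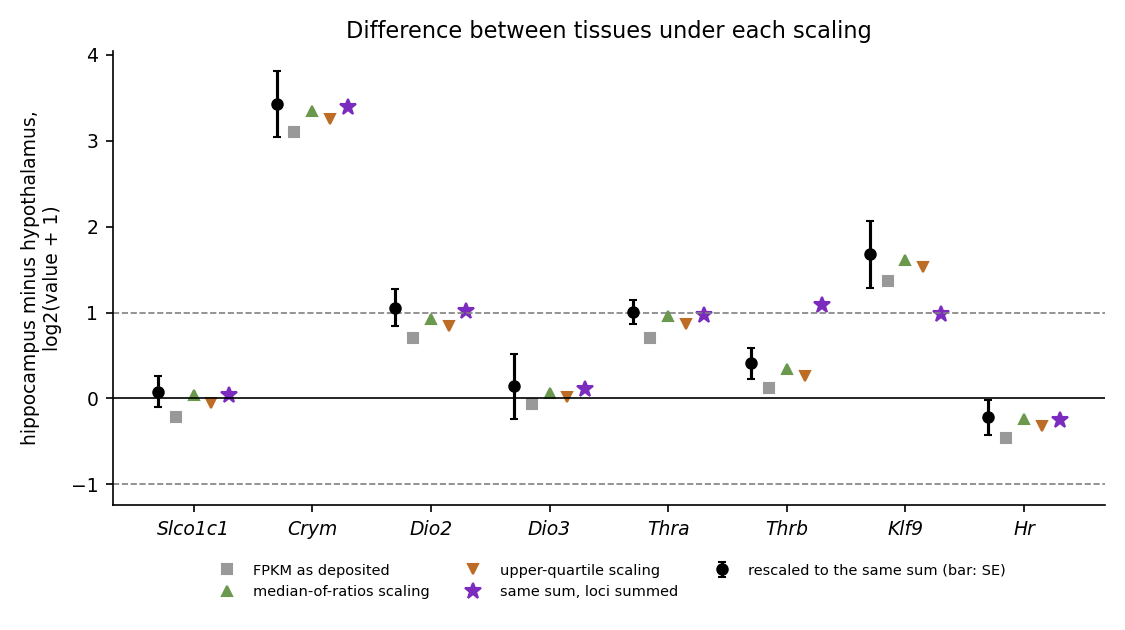
Hippocampus minus hypothalamus in log2(value + 1) for each gene under 4 scalings, and with loci summed after rescaling to the same sum. Bars on the black points are SE over 4 and 3 libraries, and dashed lines mark 2-fold. Crym stays between 3.10 and 3.43, Dio2 and Thra lie between 0.71 and 1.05, on both sides of 2-fold, and Thrb and Klf9 meet near 2-fold when loci are summed.

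Ratios of FPKM between genes of the same library do not depend on how that library was scaled. They are given here as values, with no test. Thra exceeded Thrb in every library, by 22.2, 37.6, 29.0 and 25.1 times in hippocampus and by 17.3, 16.2 and 23.3 times in hypothalamus. The lowest hippocampal and the highest hypothalamic ratio crossed. With loci summed, the hippocampal ratios were 11.6 to 22.2, and the ranges overlapped as well. Dio2 exceeded Dio3 by 7.24 to 11.96 times in hippocampus and by 2.67, 15.2 and 4.04 times in hypothalamus, where replicate 2 was apart and had the lowest Dio3 and the highest Dio2 of its tissue. Klf9 read 0.501 to 0.748 times Thra in hippocampus and 0.642, 0.312 and 0.229 times Thra in hypothalamus. With loci summed the latter became 0.642, 0.646 and 0.438.

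Other ratios used genes of the cells in which the members are known to act. Dio2 was set beside Aqp4, the water channel of astrocyte endfeet. The ratio was 0.122, 0.0853, 0.0838 and 0.0980 in hippocampus and 0.0147, 0.0223 and 0.0221 in hypothalamus, so the groups did not overlap and the means of 0.0974 ± 0.0179 (SD, n = 4) and 0.0197 ± 0.00434 (SD, n = 3) were further apart than those of Dio2 itself. Aqp4 alone read 72.2 to 106 FPKM in hippocampus and 197 to 272 FPKM in hypothalamus. The result depended on the marker. With each of the 7 measured astrocyte markers in turn, an addition made after the values were seen, 6 gave a higher ratio in hippocampus without overlap. Slc1a2, the main glutamate transporter of astrocytes, turned the order of the means, at 0.0129 ± 0.00313 in hippocampus (SD, n = 4) against 0.0222 ± 0.00642 in hypothalamus (SD, n = 3), with overlapping libraries. Slco1c1 was set beside Cldn5, a tight junction gene of brain endothelium, and the ratio was 0.311, 0.453, 0.483 and 0.547 in hippocampus and 0.682, 1.42 and 1.04 in hypothalamus. Here every hypothalamus library was higher, and Cldn5 alone read 52.3 to 105 FPKM in hippocampus and 28.8 to 53.2 FPKM in hypothalamus. Of 6 endothelial markers that gave a ratio, 3 (Cldn5, Flt1 and Slc2a1) separated the tissues in this direction and 3 (Itm2a, Kdr and Pecam1) overlapped. With Pecam1, an adhesion gene of endothelium, the order of the means turned, at 3.91 ± 0.573 in hippocampus (SD, n = 4) against 3.36 ± 0.960 in hypothalamus (SD, n = 3).

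**Figure D4:**
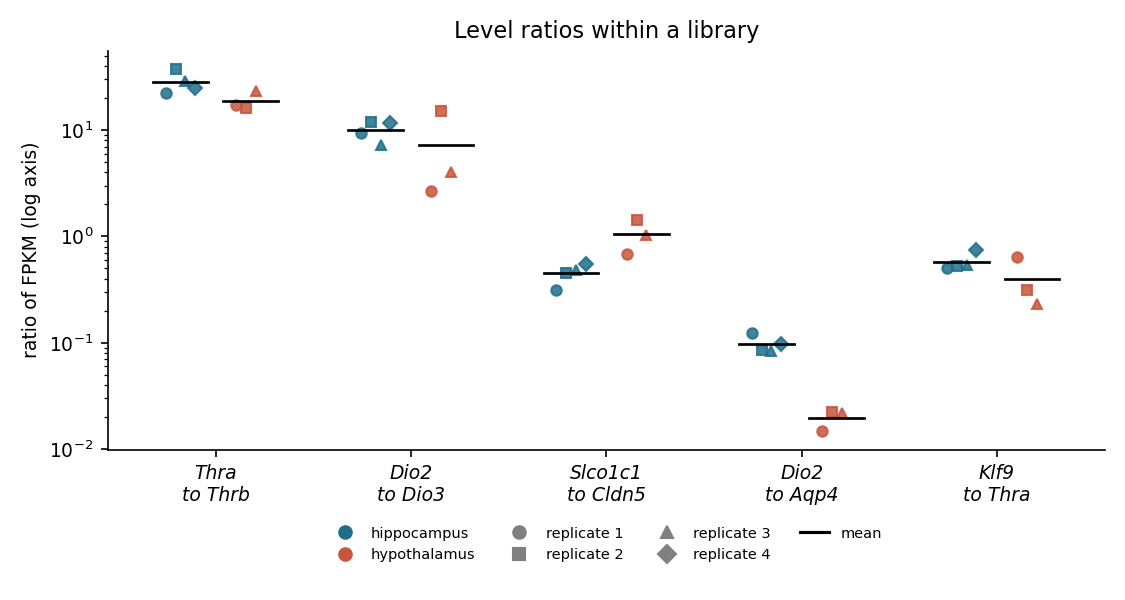
Ratio of FPKM of 2 genes in the same library (log axis) for 5 pairs, by tissue (blue hippocampus, red hypothalamus) and replicate, with means as bars. The tissues do not overlap for Slco1c1 to Cldn5, higher in hypothalamus, and for Dio2 to Aqp4, higher in hippocampus, and they overlap for the other 3 pairs.

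Markers of the cell types that carry these genes were followed in the same libraries. Of 7 tanycyte genes, 4 were called higher in hypothalamus (Rax, Gpr50, Vim and Nes) and Lhx2 was called higher in hippocampus. The summed level of the 7 was 105 to 208 FPKM in hippocampus, where Rax was listed at 0, and 304 to 536 FPKM in hypothalamus. Vim carried this separation of the sum, and the other 6 summed to 67.8 to 99.5 and 56.3 to 126 FPKM, with overlap. Those sums were mostly Lhx2, at 44.9 to 56.6 and 6.27 to 12.4 FPKM, and Ppp1r1b, at 22.1 to 42.6 and 42.0 to 102 FPKM. Rax, Gpr50 and Nes were low, and each on its own did not overlap between the tissues. Dio2 and Crym, which tanycytes also express, were both lower in hypothalamus. Of 7 astrocyte genes measured, Aqp4, Aldh1l1 and Gjb6 were called higher in hypothalamus and Slc1a2 higher in hippocampus, and the summed level overlapped, at 1277 to 1501 and 1207 to 1648 FPKM. Without Slc1a2 the other 6 did not overlap, at 638 to 774 and 1016 to 1434 FPKM. Of 7 endothelial genes, Cldn5 and Flt1 were called higher in hippocampus (Cldn5 not in FPKM as deposited), with summed levels of 305 to 372 and 203 to 260.4 FPKM. Oligodendrocyte genes summed to 1271 to 1377 FPKM in hippocampus and 1809 to 2446 FPKM in hypothalamus, and 1 of 6, Mobp, was called higher in hypothalamus. Mobp held much of that sum, at 451 ± 42.2 FPKM in hippocampus (SD, n = 4) against 1259 ± 249 FPKM (SD, n = 3), and without it the sums overlapped, at 840.0 to 899 and 831 to 1104 FPKM. Mog was higher in hippocampus without overlap, at 0.75, and so was Cnp, at 0.80, which became 0.22 when its 2 loci were summed. Meningeal genes summed to 25.3 to 117 and 27.9 to 137 FPKM, with 0 of 5 called and Col1a2 listed at 0 throughout. The part of these cell types in the members' differences was not tested.

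The 8 choroid plexus genes summed to 4755, 35.4, 5976 and 2098 FPKM in hippocampus replicates 1 to 4 and to 14.95 to 53.6 FPKM in hypothalamus. Replicate 2 was the low hippocampal library and replicate 3 the high one, and Otx2 was listed at 0 in all 7. Ttr made up most of the hippocampal sums, and the other 7 genes summed to 104, 3.50, 205 and 132 FPKM in hippocampus and to 6.70 to 9.31 FPKM in hypothalamus, with the same lowest and highest hippocampal libraries but replicate 4 above replicate 1. Slco1c1, also made by choroid plexus, was lowest in replicate 2 and highest in replicate 3 of hippocampus. Slco1a5 read 3.98, 0.0442, 6.04 and 4.58 FPKM, again lowest in replicate 2. Whether choroid plexus accounts for these orders was not tested.

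Beyond the 8 members, 52 other genes of the pathway were followed in 5 lists, of which 46 were in both tables and 44 passed the filter. Of the 44, 6 were called higher in hippocampus and 6 higher in hypothalamus, or 13.6% each, near the background of 14.5% and 13.4%. Their median difference was 0.08, against 0.05 for all symbols.

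Of 10 other transporters and carriers in both tables, 9 passed the filter and 1, Slco1a5, was called higher in hippocampus. Its difference was 2.88 ± 0.94 (SE), and the call was lost in FPKM as deposited, where hippocampus replicate 2 lay within the hypothalamic range of 0 to 0.0457 FPKM. The gene is also too low for a filter of 5 FPKM, and its difference was 5.02 with a pseudocount of 0.1, 1.43 with a pseudocount of 5 and 3.81 without hippocampus replicate 2. Ttr, the plasma and cerebrospinal fluid carrier of thyroxine, read 4651, 31.9, 5771 and 1967 FPKM in hippocampus and 30.7, 44.4 and 8.25 FPKM in hypothalamus. Its replicate 2 in hippocampus lay inside the hypothalamic range, so it was not called. Without that library, or without hypothalamus replicate 2, it was called, at 7.66 and 6.43.

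Of 6 genes of deiodinase 1 and of deiodinase handling, 5 passed the filter and 0 were called. Dio1, the deiodinase of liver and kidney, was under 1 FPKM in both tissues, at 0.596 ± 0.197 FPKM (SD, n = 4) in hippocampus and 0.113 ± 0.0674 FPKM (SD, n = 3) in hypothalamus. Its libraries did not overlap and its difference was 1.08 (2.36 with a pseudocount of 0.1), so that it was called higher in hippocampus when no filter was used.

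Among 12 receptor partners in both tables, Rxrg was called higher in hypothalamus and Med1 higher in hippocampus. Rxrg, a retinoid X receptor, read 4.97, 5.41, 4.75 and 6.28 FPKM in hippocampus and 16.2, 23.0 and 25.6 FPKM in hypothalamus. The lowest hypothalamus library was more than 2 times the highest hippocampus library, and the difference was −1.63 ± 0.19 (SE). Med1, a mediator subunit that contacts nuclear receptors, averaged 12.9 ± 3.80 FPKM (SD, n = 4) in hippocampus and 6.59 ± 0.550 FPKM (SD, n = 3) in hypothalamus. Its difference of 1.17 became 0.84 in FPKM as deposited and 0.98 by upper-quartile scaling, where the call was lost.

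Of 12 genes known to respond to thyroid hormone in brain or liver, 4 were called higher in hippocampus and 2 higher in hypothalamus. Homer1, a postsynaptic scaffold gene, averaged 38.6 ± 6.69 FPKM (SD, n = 4) in hippocampus and 3.99 ± 1.18 FPKM (SD, n = 3) in hypothalamus, a difference of 3.46. Nrgn, which encodes the calmodulin-binding neurogranin, read 763, 352, 317 and 338 FPKM in hippocampus and 99.4, 149 and 207 FPKM in hypothalamus. Replicate 1 of hippocampus was more than 2 times each of the others, and its difference of 1.80 remained a call in these 16 alternatives, the lowest value being 1.24. Reln differed by 1.47 (1.85 with its loci summed) and Thrsp, a lipogenic gene, by 1.34. Towards hypothalamus, Itih3 read 75.8 ± 23.0 FPKM in hippocampus (SD, n = 4) against 479 ± 71.7 FPKM (SD, n = 3), a difference of −2.39, and Gap43, a growth cone gene, differed by −1.13. The list thus held calls in both directions, with a median of 0.21.

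Of the 6 genes of the thyroid axis, 3 were called higher in hypothalamus and 0 higher in hippocampus. Trh, the releasing hormone gene, read 75.5, 108 and 145 FPKM in hypothalamus and 1.70, 1.26, 0.792 and 1.08 FPKM in hippocampus. The groups were far apart, and the difference was −5.83 ± 0.31 (SE). Tshr, the thyrotropin receptor gene, read 1.57, 2.30 and 1.80 FPKM against at most 0.300 FPKM in hippocampus. Its difference of −1.63 became −0.71 with a pseudocount of 5, where the call was lost, and the gene is too low for a filter of 5 FPKM. Tshb, which the pituitary makes, read 3.64, 15.2 and 5.27 FPKM in hypothalamus and was listed at 0 in 3 of 4 hippocampus libraries.

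**Figure D5:**
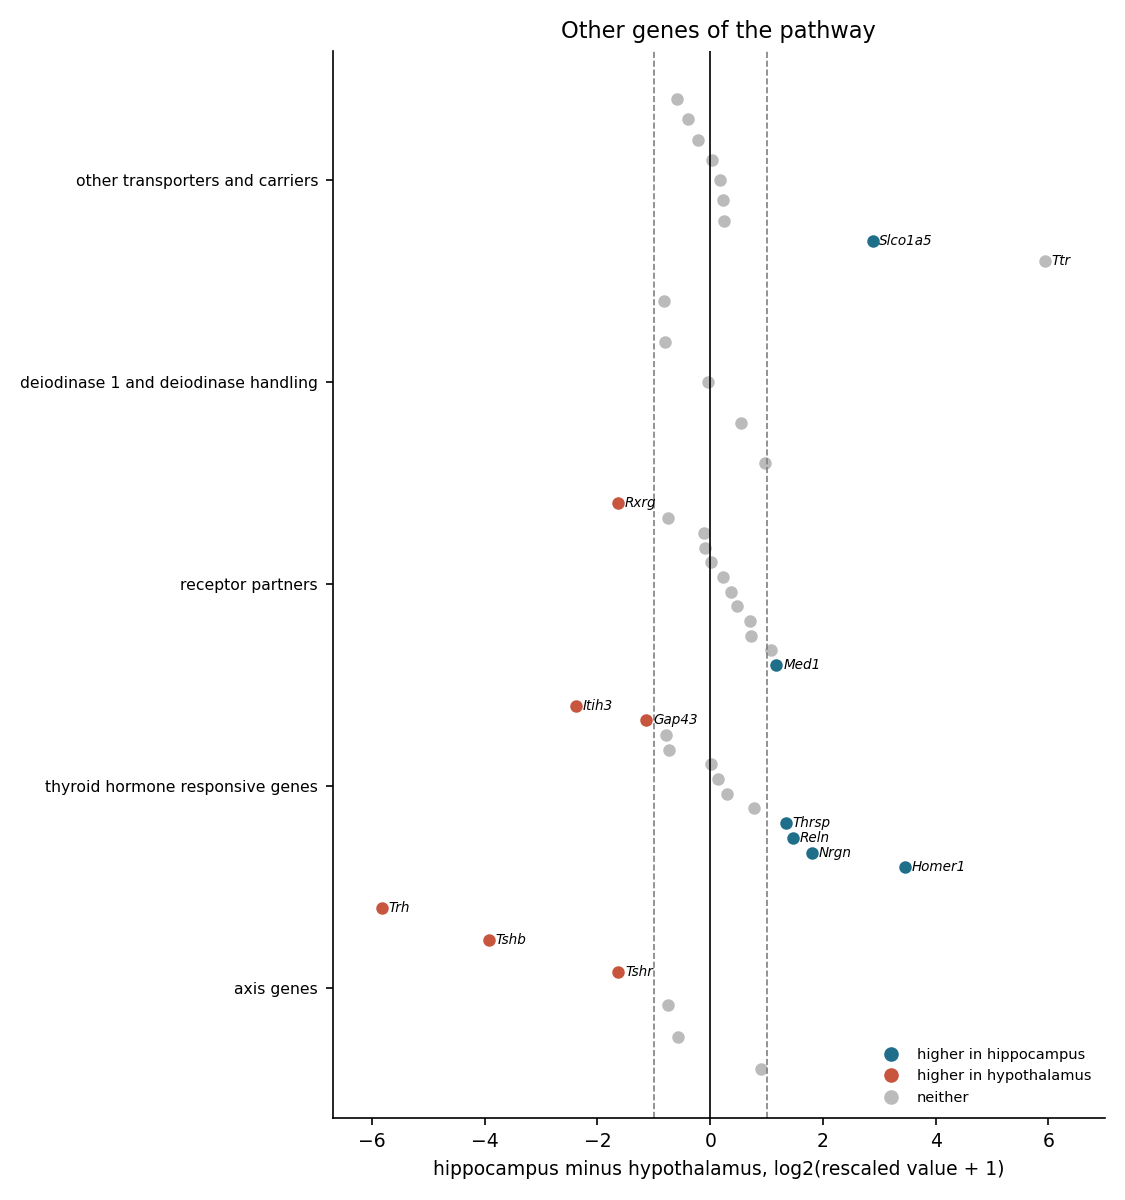
Hippocampus minus hypothalamus in log2(rescaled value + 1) for the 44 pathway genes that passed the filter, 1 row per list, coloured by call, with dashed lines at 2-fold. Calls lie on both sides, 6 towards each tissue, and Trh is farthest to the left at −5.83.

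For each called member, the 3 symbols with the most similar profile over the 7 libraries were found among 6938 symbols that had 1 locus in each table and averaged 5 FPKM or more where they were higher. Likeness was the Euclidean distance between log2(rescaled value + 1) profiles, each centred on its own mean, so that 0 is an identical shape. For Crym these were Ptk2b, a cytoplasmic tyrosine kinase gene, at 0.611, Cnih3, an AMPA receptor subunit partner, at 0.694 and Wipf3 at 0.762. Ptk2b read 135 to 200.4 FPKM in hippocampus and 13.2 to 19.6 FPKM in hypothalamus. For Thra they were Actr1b at 0.195, Tecpr1 at 0.209 and Cdk9 at 0.236. For Dio2 they were Atg4al1 at 0.372, Wasl at 0.401 and Fam5b at 0.429. For Klf9 they were Snx14 at 0.324, C1d at 0.332 and Agps at 0.335, matched to the main locus with its high hypothalamus replicate 1. Crym had the most distant neighbours of the 4 genes and Thra the closest.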

How the data were processed

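Transcript levels of 4 hippocampus and 3 hypothalamus libraries of DHA-fed rats were read from 2 tables of FPKM deposited by the authors, 1 per tissue. The submitters' processing notes name TopHat, TopHat2, Bowtie, Bowtie2, Cufflinks, Cuffdiff and rn5, without versions or roles; the annotation and any use of strand are not given in the sources used here. Loci that the tables do not mark OK throughout were dropped (86 in hippocampus, 24 in hypothalamus; none of a member). The locus with the highest mean represented a symbol, and tables were joined by symbol (15805 shared). The pseudocount was 1, the filter an average of 1 FPKM or more in either tissue, and calls are as defined above. The calling step was tested on simulated data with planted differences well past 2-fold, so that test does not cover genes near the 2-fold line. Python 3.11.15, numpy 2.4.6, pandas 2.3.3 and matplotlib 3.10.9 were used.

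The members and gene lists (5 of the pathway, 8 of cell types or neurons) were chosen with earlier results of these data known. Genes absent from a shared symbol set were not analysed here, and 1 gene of the lists is counted but not reported here. Named genes were all members, every called gene of the pathway lists, Dio1, Ttr, Trh and Rxrg, marker genes used in a ratio or a check, and 3 most alike symbols per called member; Nr1d1, Med24 and the genes of the closing observations were added after their values were seen. Alternatives were pseudocounts of 0.1 and 5, other scalings, summed loci, other filters and leaving out replicates; other markers in 2 ratios, within-number differences and sums without the leading marker were added after the data were seen.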

Additional observations from a re-analysis of the deposited data

Results flagged for a closer look

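Over the 4 hippocampus libraries 29 values were examined, and for 5 of them an extreme library passed the 95% limit of Dixon's ratio, which divides its distance from the next library by the full span. Chance flags about 1 in 20 such values, or 1.45 here, and genes are not independent. The ratio of Klf9 to Thra was highest in replicate 4 (Dixon's ratio 0.836), at 0.748 against 0.501 to 0.541 in the others. Homer1 was also highest in replicate 4 (0.859). Nrgn (0.920) and Reln (0.907) were highest in replicate 1. Reln has 2 loci in hippocampus, and its flag is for the main locus alone. The second locus was not examined in this way. Tshb was listed at 0 in replicates 1 to 3 and at 0.157 FPKM in replicate 4, which gives a ratio of 1, as any value above 0 would beside 3 libraries at 0, so that this flag carries no information on size. None of the 8 members' own levels was flagged in this way.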

How the results depend on the processing

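Sequencing depth is unknown, and with 4 and 3 libraries from separate tables no test across tissues was made. The labels do not say that replicate numbers join animals, so the numbers were not taken as pairs. Deviations of same-numbered libraries from their tissue means correlated at −0.079, −0.204 and −0.329 across compared symbols. Those of libraries with other numbers correlated at −0.081 to 0.330. These values cannot decide whether numbers join animals, because deviations from a mean of 3 libraries sum to 0 in each tissue. With a replicate block, added after the data were seen (differences within numbers 1 to 3, all of 1 sign and 2-fold or more on average), 3 members were higher in hippocampus (Thra, Crym and Klf9) and 0 in hypothalamus. The count of members higher in hippocampus, 4, became 2 with a pseudocount of 5, in FPKM as deposited, by median-of-ratios scaling and by upper-quartile scaling, and it ranged from 2 to 4 when replicates were left out, with 2 without hypothalamus replicate 1 and 2 without replicate 1 of both tissues. It was 3 with loci summed, which exchanged Klf9 and Thra for Thrb. Shares of all symbols are given for the scalings only. Counts under the other alternatives and the replicate block have no background beside them. The count of members higher in hypothalamus was also 0 in 16 alternatives of pseudocount, scaling, loci, filter and left-out libraries. Pathway genes higher in hypothalamus, 6, became 10 in FPKM as deposited and 5 with a pseudocount of 5 or a filter of 5 FPKM, and those higher in hippocampus ranged from 4 to 9 over these 16. With other markers, added after the data were seen, the log2 ratio of means between the tissues turned from 2.31 (Dio2 to Aqp4) to −0.78 (to Slc1a2) and from −1.22 (Slco1c1 to Cldn5) to 0.22 (to Pecam1). Among single members' levels, differences and ratios under those 16 alternatives, 8 values moved by 1 SD between replicates or more, and 0 called differences changed sign; values that an alternative cannot reach, such as a level in the tissue that lost no library, are unchanged by construction.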

Other observations

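Several pathway genes did not overlap between the tissues but differed by less than 2-fold after rescaling. Those named here were chosen for mention after their values were seen, and others in both directions are left out. Of the 44 pathway genes, called ones included, 11 were higher in hippocampus without overlap and 13 higher in hypothalamus. The shares of all symbols were 28.2% and 24.4%. Wsb1, part of a ubiquitin ligase that acts on the deiodinase of Dio2, averaged 21.0 ± 5.12 FPKM (SD, n = 4) in hippocampus and 45.4 ± 5.37 FPKM (SD, n = 3) in hypothalamus, a difference of −0.83. Selenop, listed in the tables as Sepp1, encodes a selenium carrier and read 144 ± 33.1 and 303 ± 17.1 FPKM, a difference of −0.80. Secisbp2, which is needed to insert selenocysteine into deiodinases, lay the other way, at 5.95 ± 0.544 and 3.53 ± 0.406 FPKM, a difference of 0.97. Among hormone-responsive genes, Mbp read 1846 ± 104 and 3783 ± 602 FPKM (−0.72) and Nefh read 19.1 ± 3.14 and 40.2 ± 1.87 FPKM (−0.78). In FPKM as deposited, Wsb1, Selenop, Mbp and Nefh passed the 2-fold line towards hypothalamus, where they make up the rise in the pathway count from 6 to 10.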
